A study of Mus musculus with 2 samples.

Results

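Mouse liver barcodes with at least 3 UMIs (unique molecular identifiers, each a counted RNA molecule) over Krt8, Krt18 and Sox9 are described here. They were chosen by those 3 genes, after barcodes were required to have at least 200 genes, at most 25% mitochondrial UMIs and 0 UMIs over Ptprc, Ptprb and Dcn, which mark leukocytes, endothelium and fibroblasts. The rule kept 1612 barcodes (the members) of 5843 deposited ones, 1326 in the library labelled shBicd2 and 286 in that labelled scramble. Within each library they were compared with barcodes with 0 UMIs of these 3 genes, of which 547 and 1482 were found in the libraries labelled shBicd2 and scramble.

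Both libraries come from livers of C57BL/6J wild-type mice. At an age of 4 weeks these had been given AAV-shBicd2 or AAV-scramble, adeno-associated viruses carrying a hairpin against Bicd2 or a scrambled control. Bicd2 encodes an adaptor that joins cargo to the dynein motor. After 3 weeks concanavalin A, a plant lectin used to set off T cell-driven liver injury, was injected into a vein of all mice at 15 mg/kg, and livers were taken 6 h later, so neither library shows a liver without concanavalin A. There is 1 library per group, the number of mice in each and the promoter of the hairpin are not given in the sources used here, and the group, the animal and the preparation cannot be told apart.

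Keratins 8 and 18 are the intermediate filament pair of hepatocytes; they assemble with each other, protect the cell against mechanical and toxic stress, and are known to increase in injured liver. Cells lining the bile ducts carry keratins 7 and 19 in addition and express Sox9, a transcription factor of the duct lineage. Sox9 can also be switched on in hepatocytes near the portal vein and in hepatocytes of injured liver.

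Epcam, Krt19 and Krt7, the genes that define bile duct cells, were close to absent from the members. Epcam, a surface adhesion molecule, had 0 UMIs in all 1326 shBicd2 members and all 286 scramble members, and a limit of 3 counts over these numbers of barcodes is 0.226% and 1.05%; at this depth an expressing cell can hold 0 UMIs. Krt19 had 1 UMI in the shBicd2 members and 0 in the scramble members, against 0 and 2 UMIs in the barcodes with 0 gate UMIs of these libraries. Krt7 had 1 UMI in the shBicd2 members and 0 in the scramble members. Epcam and Krt7 had 0 UMIs in the 0-UMI barcodes of both libraries too, so this near absence was not particular to the members. Krt8 and Krt18 belong to the gate, so their presence in members was set by the rule.

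Other duct genes were sparse. Spp1, which encodes osteopontin, had 22 UMIs in shBicd2 members and 10 in scramble members, and Pkhd1, a cilium protein, had 19 and 2. Cftr, Sctr and Cldn7 had 0 in both. Elf3, an epithelial transcription factor on the list, had 198 of the list's 265 UMIs in shBicd2 members and 12 of its 29 in scramble members. Over the whole list of 17 duct genes, depth-matched members held 73.6 CPM (UMIs per 1000000 UMIs of all genes), against 121 CPM in matched 0-UMI barcodes of the library labelled shBicd2. The list stood, in the library labelled scramble, at 39.4 CPM in members and 24.5 CPM in 0-UMI barcodes. Only 2 of the 17 genes had 10 UMIs over the matched groups of each library, so these sums rest on few genes. Of these 2, 1 was higher and 1 lower in members labelled shBicd2, and 2 were higher in those labelled scramble. Of the scramble members' 10 Spp1 UMIs, 9 came from 1 barcode. The list of 10 mesothelial genes, another keratin-rich cell layer of the liver, summed to 19 UMIs in the shBicd2 members and 0 in the scramble members.

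Hepatocyte RNA filled the members as it filled the other barcodes. Secreted hepatocyte proteins (22 genes, among them albumin and the fibrinogens) summed to 37027 CPM in members and 38055 CPM in matched 0-UMI barcodes of the library labelled shBicd2. Within the library labelled scramble the sums were 31356 CPM in members and 28997 CPM in 0-UMI barcodes. Hepatocyte transcription factors (18 genes) stood at 4695 CPM in members against 4112 CPM in the library labelled shBicd2 and at 4410 CPM against 4287 CPM in the library labelled scramble. Alb itself was at 2377 CPM in members and 1607 CPM in 0-UMI barcodes of the library labelled shBicd2, for a ratio of 1.48 (1.36 to 1.60), and at 1103 CPM and 874 CPM in the library labelled scramble, a ratio of 1.26 (1.13 to 1.41). All intervals are exact at 95% and cover counting error only; they do not include the bunching of UMIs within barcodes or any difference between mice.

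The library labelled shBicd2 held far more members, a description of the gate and no test. They made up 46.7% (44.9 to 48.6) of its 2838 filtered barcodes, against 10.996% (9.82 to 12.3) of 2601 in the library labelled scramble. Barcodes with 10 or more gate UMIs were 11.2% in the library labelled shBicd2 and 0.961% in that labelled scramble. Just inside the threshold, at 3 UMIs, lay 296 barcodes labelled shBicd2 and 113 labelled scramble; just outside it, at 2 UMIs, lay 442 and 244. The highest members held 73 gate UMIs in the library labelled shBicd2 and 41 in that labelled scramble, with medians of 5 and 4.

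**Figure D1:**
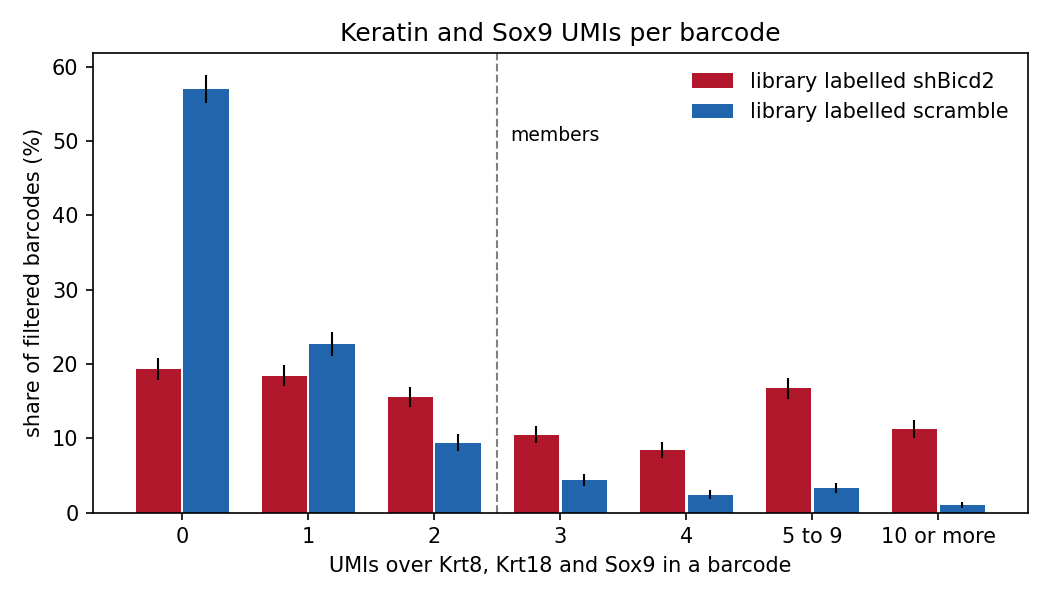
Share of filtered barcodes (%, vertical axis) by the number of UMIs over Krt8, Krt18 and Sox9 (horizontal axis) in the libraries labelled shBicd2 (red) and scramble (blue), with exact 95% binomial intervals; the dashed line is the threshold of 3. Barcodes with 0 such UMIs are 19.3% of the library labelled shBicd2 and 57.0% of the library labelled scramble.

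The keratins differed in level between the libraries, while Sox9 did not differ beyond counting error. Over all filtered barcodes Krt8 stood at 1092 CPM (1064 to 1120) in the library labelled shBicd2 and 225 CPM (211 to 239) in the library labelled scramble. Krt18 was at 1165 CPM (1136 to 1194) and 271 CPM (257 to 287). Sox9 was at 47.0 CPM (41.4 to 53.2) in the library labelled shBicd2 and 48.9 CPM (42.8 to 55.6) in the library labelled scramble, intervals that overlap. Both keratins were found in 80.2% of shBicd2 members and 61.5% of scramble members. A Sox9 UMI was found in 164 shBicd2 members (12.4%, 10.6 to 14.3) and 63 scramble members (22.03%, 17.4 to 27.3). Members with Sox9 and no keratin numbered 0 of 1326 and 9 of 286. Those with at least 3 Sox9 UMIs numbered 12 and 14, and there were 2.06 and 9.04 Sox9 UMIs per 100 keratin UMIs in shBicd2 and scramble members. Only 28 shBicd2 members and 39 scramble members had fewer than 3 keratin UMIs, so keratin UMIs alone met the gate in the others. Sox9 and the keratins make up the gate, so these shares and UMI numbers among members only describe the gated barcodes. They are not read as a difference in Sox9 expression between the libraries.

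Krt8 and Krt18 are neighbours on chromosome 15 (GRCm38), 23697 bases apart: Krt8 lies at chr15:101996698-102004482 on the minus strand and Krt18 at chr15:102028180-102032027 on the plus strand. The RefSeq sequence upstream of both genes (GRCm38.p6) is shown because these genes chose the members, and that upstream of Ccn1, on chromosome 3, because Ccn1 was, of all genes, the one furthest above 0-UMI barcodes in both libraries together. Only bases before the annotated gene are printed, 5′ to 3′ on the gene's strand, at chr15:102004483-102004592, chr15:102027966-102028179 and chr3:145649986-145650235; capitals mark a TEAD motif. Sox9 is named only.
Krt8: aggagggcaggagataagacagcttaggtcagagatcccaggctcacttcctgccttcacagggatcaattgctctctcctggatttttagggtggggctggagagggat
Krt18: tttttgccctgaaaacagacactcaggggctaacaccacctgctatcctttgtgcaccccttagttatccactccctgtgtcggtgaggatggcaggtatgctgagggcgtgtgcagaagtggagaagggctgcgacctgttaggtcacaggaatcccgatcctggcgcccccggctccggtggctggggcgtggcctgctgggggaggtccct
Ccn1: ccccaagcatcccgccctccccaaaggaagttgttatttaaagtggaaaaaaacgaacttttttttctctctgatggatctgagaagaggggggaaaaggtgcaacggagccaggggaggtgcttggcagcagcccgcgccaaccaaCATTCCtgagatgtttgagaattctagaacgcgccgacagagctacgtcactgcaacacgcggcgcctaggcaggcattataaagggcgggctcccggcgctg

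The 250 bases upstream of each RefSeq start were searched on both strands for the AP-1 motif TGANTCA and the TEAD motif GGAATG. Neither motif was found upstream of Krt8 or Krt18. Upstream of Ccn1 there was 1 TEAD match, read on the opposite strand as CATTCC and starting 103 bases before the start, and 0 AP-1 matches. Of 32851 RefSeq promoters of this length, 6.75% hold the AP-1 motif and 12.6% the TEAD motif. These are matches of letters and not binding sites.

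The library labels and the free RNA of the suspension limit what a member is. Bicd2 was at 19.3 CPM (15.8 to 23.3) in the library labelled shBicd2 and 16.4 CPM (13.0 to 20.3) in the library labelled scramble, so the targeted RNA was not lower where the label gives the hairpin. Sequencing depth was 5624055 UMIs in 3038 barcodes and 5086306 UMIs in 2805 barcodes. Only 3 barcode strings were shared by the libraries, and none was a member in both. Barcodes with at least 3 UMIs of B, T and NK cell markers, which should lack keratins, held at least 3 gate UMIs in 6 of 27 cases (22.2%, 8.62 to 42.3) in the library labelled shBicd2 and in 2 of 24 (8.33%, 1.03 to 27.0) in the library labelled scramble.

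Thinned to 1000 UMIs each, 31.1% of the filtered barcodes and 2 of 15 lymphocyte-marker barcodes (13.3%, 1.66 to 40.5) passed the gate in the library labelled shBicd2. For the library labelled scramble 5.33% of the filtered barcodes passed it, against 1 of 10 lymphocyte-marker barcodes (10%, 0.253 to 44.5); 777 and 670 shallower barcodes were left out. Per 1000 UMIs of the hepatocyte secreted proteins, the filtered barcodes held 65.7 keratin UMIs (64.5 to 66.9) and the lymphocyte-marker barcodes 39.2 (29.1 to 51.6) in the library labelled shBicd2. Across the library labelled scramble the filtered barcodes held 15.96 (15.3 to 16.6) and the lymphocyte-marker barcodes 28.8 (17.6 to 44.4). The shares of scramble barcodes that passed the gate lay within the wide intervals of the few lymphocyte-marker barcodes at both depths, so the number of scramble members is not read as a level of keratin expression. For shBicd2 members the share lay above that interval before thinning and within it after. Sox9 had 0 UMIs in the lymphocyte-marker barcodes of both libraries, where 3 counts would be 2.35 and 4.32 per 1000 hepatocyte UMIs, above the 1.37 and 1.57 of the filtered barcodes, so its background level was not detectable at this depth. Those barcodes held hepatocyte secreted protein RNA at 30018 CPM and 22686 CPM, close to the 34346 CPM and 31089 CPM of the filtered barcodes; whether it was free RNA or a hepatocyte in the same droplet was not tested.

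Members were deeper than the barcodes they were compared with, with medians of 2134 UMIs against 954 UMIs in the library labelled shBicd2 and 2144 UMIs against 1301.5 UMIs in the library labelled scramble. Each member was therefore paired with the unused 0-UMI barcode nearest in depth, within 10%. This gave 460 pairs labelled shBicd2, with medians of 1212.5 UMIs in members and 1087.5 UMIs in 0-UMI barcodes, and 278 pairs labelled scramble, with medians of 2115 and 2107.5. The 866 shBicd2 members left without a partner were the deep ones, with a median of 2648.5 UMIs; only 8 scramble members were left out.

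At matched depth and outside the gate, members had higher levels of Ccn1, Slpi and most AP-1 and immediate early genes and lower levels of Mat1a and most urea cycle genes than 0-UMI barcodes in both libraries. Matched scramble members with 3 to 4 gate UMIs, taken alone, did not show the rise. Ccn1 was at 0.62 (0.30 to 1.24) and Slpi at 0.90 (0.46 to 1.76) in them. Of the AP-1 and immediate early genes 5 of 14 were higher there, against 45% of all genes. Mat1a was lower in them too, at 0.63 (0.57 to 0.70). Of 4081 genes with at least 50 UMIs in the library labelled shBicd2, 108 (2.65%) were at least 2-fold higher in members and 96 (2.35%) at least 2-fold lower. At any size 36.7% were higher. Of 3703 such genes in the library labelled scramble, 26 (0.702%) were at least 2-fold higher and 31 (0.837%) at least 2-fold lower, with 41.1% higher at any size. The median gene was lower in members, by a log2 ratio of -0.16 in the library labelled shBicd2 and -0.07 in that labelled scramble, and ratios are to be read against that. CPM behind the ratios and by gate UMIs leave the 3 gate genes and the 3 exclusion genes out of the total. With 1 library per group these counts have no replicate check.

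Of 3357 genes with at least 50 UMIs in each library, 7 (0.209%) were at least 2-fold higher in members of both, namely Ccn1, Slpi, Hist1h4h, Smoc1, Ormdl3, Hist1h1d and Tm4sf4. Another 3 (0.0894%), among them Cpox and Cct3, were at least 2-fold lower in both. Higher in both at any size were 22.3% of the genes.

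Ccn1 stood highest. It encodes a secreted matrix protein that is induced as an immediate early gene and by the YAP and TEAD factors. Ccn1 was at 300 CPM in members and 86.1 CPM in 0-UMI barcodes of the library labelled shBicd2, for a ratio of 3.49 (2.56 to 4.83). In the library labelled scramble it was at 141 CPM in members and 38.2 CPM in 0-UMI barcodes, a ratio of 3.70 (2.36 to 6.01). The gene was detected in 59 of 460 members and 24 of 460 0-UMI barcodes of the library labelled shBicd2, and in 30 of 278 and 7 of 278 of the library labelled scramble. One scramble member held 18 of its UMIs; without that barcode and, in the other library, without its highest member, the ratios were 2.99 (1.88 to 4.91) for scramble and 3.25 (2.38 to 4.51) for shBicd2. Most members held no Ccn1 UMI. At this depth an expressing cell can hold 0, so how many members share the excess cannot be read from these counts.

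Slpi, an inhibitor of leukocyte proteases, was at 225 CPM in members against 77.9 CPM in 0-UMI barcodes of the library labelled shBicd2, for a ratio of 2.89 (2.07 to 4.10). Within the library labelled scramble it was at 94.2 CPM against 38.2 CPM, a ratio of 2.47 (1.53 to 4.10), which was 1.92 (1.16 to 3.25) without its highest member. Smoc1, a secreted calcium-binding protein, had ratios of 2.52 and 2.22 in the libraries labelled shBicd2 and scramble, and Tm4sf4, a tetraspan membrane protein, 2.02 and 2.04. Ormdl3, which restrains sphingolipid synthesis, had 2.15 in both. Cited2, a co-regulator that binds CBP and p300, reached 353 CPM against 146 CPM and 366 CPM against 188 CPM, ratios of 2.42 (1.89 to 3.13) and 1.95 (1.56 to 2.44). Ugp2, which makes UDP-glucose for glycogen, had ratios of 2.34 and 1.99, and Elovl5, a fatty acid elongase, 2.30 and 1.99.

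Some of the named genes are histone genes, of which no list was counted. Hist1h4h, an H4 histone, was at 174 CPM in members against 69.6 CPM in the library labelled shBicd2 and at 191 CPM against 81.0 CPM in the library labelled scramble, ratios of 2.49 (1.74 to 3.64) and 2.36 (1.70 to 3.32). Hist1h1d, a linker histone, had ratios of 2.08 and 2.28. Hist1h4n, in the library labelled shBicd2 alone, led all genes, at 198 CPM against 34.8 CPM, a ratio of 5.68 (3.57 to 9.49), against 1.23 (0.85 to 1.80) in the library labelled scramble. Hist1h2ac had 3.23 (1.62 to 6.99) in the library labelled shBicd2 and 4.64 (1.29 to 25.2) in that labelled scramble, the second on 14 against 3 UMIs, and Hist1h2bc had 3.01 (2.43 to 3.76) and 1.32 (0.97 to 1.80). Histone genes of this cluster are near-identical copies, so how reads were split among them is uncertain.

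Several enzyme genes were lower in members of both libraries. Mat1a, which makes S-adenosylmethionine and is a mark of the mature hepatocyte, was at 4051 CPM in members against 7150 CPM in 0-UMI barcodes of the library labelled shBicd2, for a ratio of 0.57 (0.54 to 0.59). For the library labelled scramble it was at 1446 CPM against 2737 CPM, a ratio of 0.53 (0.49 to 0.57). Nnmt, which consumes S-adenosylmethionine to methylate nicotinamide, had ratios of 0.53 (0.40 to 0.70) and 0.54 (0.41 to 0.71). Cpox, an enzyme of heme synthesis, had 0.40 (0.23 to 0.68) and 0.37 (0.18 to 0.69), and Cd1d1, which presents lipids to T cells, 0.55 (0.42 to 0.72) and 0.43 (0.30 to 0.60). Cct3, a chaperonin subunit, had 0.50 and 0.48, and Qars, the glutaminyl-tRNA synthetase, 0.47 and 0.51.

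Other genes were named from a single library; the difference between the libraries was not tested. Across the library labelled shBicd2 Snai2, a repressor known from epithelial to mesenchymal transition, was at 137 CPM in members against 38.1 CPM, a ratio of 3.60 (2.26 to 5.97), with 1.65 (1.04 to 2.64) in the library labelled scramble. Hes1, a Notch target, was at 72.4 CPM against 21.5 CPM, a ratio of 3.36 (1.79 to 6.77), with 0.99 (0.39 to 2.53) in the library labelled scramble. Rnf145, a ubiquitin ligase, had 3.13. Ifi203, an interferon-inducible gene, was the lowest of the named genes at 0.17 (0.07 to 0.36), with 0.28 (0.08 to 0.77) on 5 against 18 UMIs in the library labelled scramble. Of these 18 UMIs, 9 came from 1 barcode. Also low in the library labelled shBicd2 were Rnpep, an aminopeptidase, with 0.34, Slc13a5, the citrate transporter, with 0.36, and Actr2, an actin nucleator subunit, with 0.37. In the library labelled scramble Hilpda, a lipid droplet protein induced by low oxygen, was at 76.0 CPM against 22.9 CPM, a ratio of 3.31 (1.83 to 6.35), with 1.07 (0.766 to 1.497) in the library labelled shBicd2. Also in the library labelled scramble, Adamts1, a secreted protease, had 2.66 (1.74 to 4.16), and Pdia4, a folding enzyme, had 0.33 (0.18 to 0.56).

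**Figure D2:**
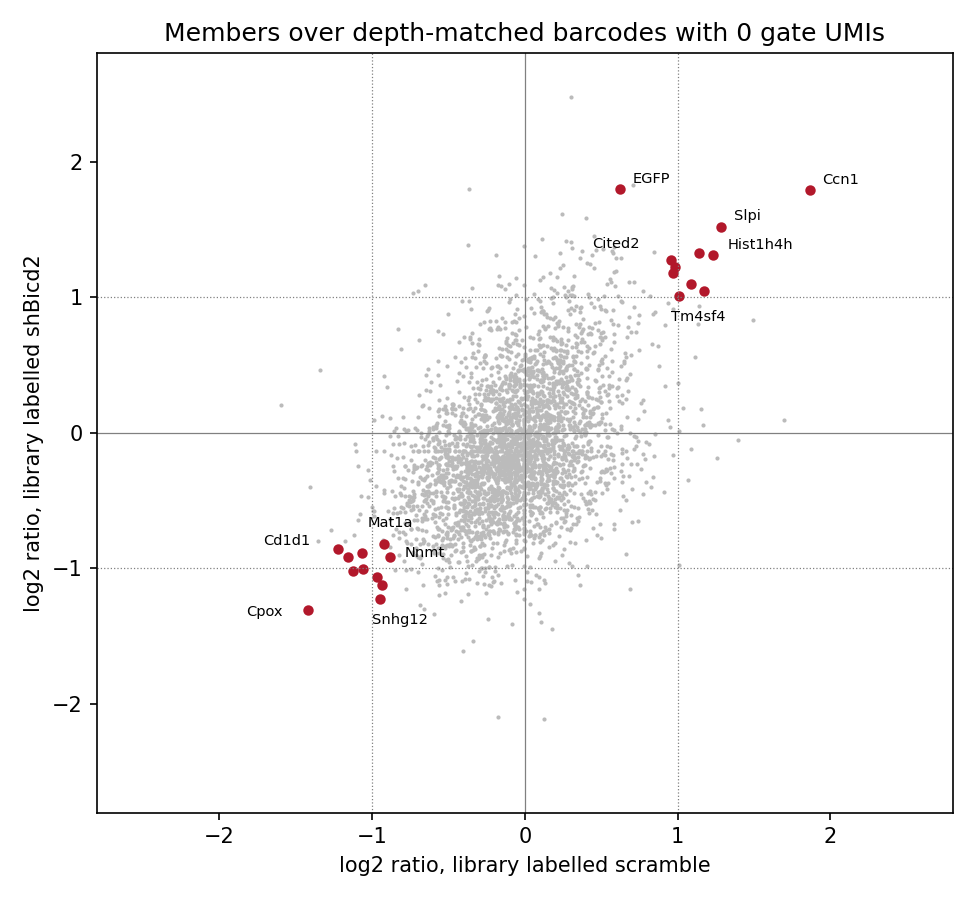
Log2 ratio of members over depth-matched barcodes with 0 gate UMIs in the libraries labelled shBicd2 (vertical axis) and scramble (horizontal axis) for the 3357 genes with at least 50 UMIs in each; red points are the 10 highest and 10 lowest genes shared by both libraries, EGFP and Mat1a, some of them named, and dotted lines mark 2-fold. Ccn1 lies at 1.79 and 1.87, the highest of the shared genes, and the 3 genes below -1 on both axes include Cpox and Cct3.

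By gene list, the clearest group in the library labelled shBicd2 was the AP-1 and immediate early genes, transcription factors switched on within minutes of stress or growth signals. Within the library labelled shBicd2 all 16 with at least 10 UMIs were higher in members and 7 at least 2-fold, against 35.8% and 3.89% of all genes with 10 UMIs, and their median log2 ratio was 0.92 against -0.20 for all genes. For the library labelled scramble 13 of 15 were higher and 2 at least 2-fold, against 38.8% and 3.14%, with a median of 0.32 against -0.11. Other lists lay close to it there. Hypoxia and glycolysis genes had a median of 0.32, with 11 of 13 higher, and NRF2 and glutathione genes 0.31, with 5 of 8 higher. Jun was at 1591 CPM in members against 674 CPM in 0-UMI barcodes of the library labelled shBicd2, for a ratio of 2.36 (2.10 to 2.65), and at 1171 CPM against 984 CPM in the library labelled scramble, a ratio of 1.19 (1.07 to 1.32). Atf3, a stress-induced repressor, had ratios of 2.37 (1.95 to 2.90) and 1.34 (1.10 to 1.64), and Klf6 2.003 (1.76 to 2.28) and 1.34 (1.20 to 1.49). Myc, a growth regulator, had 2.48 (1.60 to 3.94) and 2.82 (1.06 to 8.73), the second on 17 against 6 UMIs. Klf10, also a transcription factor, was 1 of 2 that were not higher in the library labelled scramble, at 1.85 (1.24 to 2.78) in the library labelled shBicd2 and 0.70 (0.48 to 1.01) in that labelled scramble.

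Genes that act with damaged keratin moved less uniformly. Injured hepatocytes are known to form aggregates of keratins 8 and 18 with p62 and ubiquitin. All 9 measured genes of this list were higher in members of the library labelled shBicd2, with a median log2 ratio of 0.71, and 6 of 9 in the library labelled scramble, with a median of 0.11. Of all genes with 10 UMIs 35.8% and 38.8% were higher, with medians of -0.20 and -0.11. Sqstm1, which encodes p62, was at 456 CPM against 277 CPM in the library labelled shBicd2, for a ratio of 1.65 (1.36 to 2.002), and at 0.96 (0.79 to 1.16) in the library labelled scramble. Hspb1, a small heat shock protein, had 2.99 (1.24 to 8.26) on 23 against 7 UMIs and 0.86 (0.38 to 1.94) on 13 against 15 UMIs. Of the other heat shock chaperones, 12 of 15 were higher in the library labelled shBicd2 and 8 of 16 in the library labelled scramble, with medians of 0.43 and 0.04; Hspa1b, an inducible chaperone, had 1.83 (1.52 to 2.22) and 1.68 (1.37 to 2.06).

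NF-kB, chemokine and injury lists lay above the all-gene median in the library labelled shBicd2, while other inflammatory lists lay nearer to it; differences between the libraries were not tested. The counts are to be read against 35.8% and 38.8% of all genes with 10 UMIs that were higher in these libraries, with medians of -0.20 and -0.11. Acute phase genes were higher in 9 of 20 and 8 of 20 cases, with medians of -0.01 and -0.06 in the libraries labelled shBicd2 and scramble. Type I interferon genes were higher in 6 of 17 and 8 of 17, with medians of -0.27 and -0.10, and interferon gamma genes in 11 of 18 and 14 of 18, with medians of 0.08 and 0.12. NF-kB response genes were higher in 14 of 17 and 11 of 17 cases, with median log2 ratios of 0.41 and 0.13 in the libraries labelled shBicd2 and scramble. Chemokines and cytokines were higher in 9 of 12 and 3 of 10, with medians of 0.47 and -0.21: Cxcl10, which draws T cells, had ratios of 2.13 (1.92 to 2.38) and 0.89 (0.83 to 0.94), and Cxcl2, which draws neutrophils, 1.97 (1.73 to 2.23) and 0.75 (0.66 to 0.85). Injury and regeneration genes were higher in 11 of 14 and 6 of 13, with medians of 0.50 and -0.01; Gdf15, a stress cytokine, had 1.998 (1.84 to 2.18) and 1.21 (1.12 to 1.30). Hypoxia and glycolysis genes were higher in 13 of 15 and 11 of 13, with medians of 0.48 and 0.32. Among them Bnip3, a mitophagy receptor, had ratios of 1.95 (1.56 to 2.45) and 1.35 (1.14 to 1.60), and Egln3, an oxygen sensor, 1.93 (1.27 to 2.99) and 2.23 (1.37 to 3.72).

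Actin cytoskeleton genes were higher in 14 of 22 and 10 of 18 cases in the libraries labelled shBicd2 and scramble, with medians of 0.36 and 0.05. Among all genes with 10 UMIs 35.8% and 38.8% were higher. Myh9, non-muscle myosin, had ratios of 2.16 (1.82 to 2.58) and 1.61 (1.38 to 1.88), and Actg1, gamma actin, 1.62 (1.504 to 1.743) and 1.30 (1.19 to 1.41). Plec, the linker that ties keratin filaments to the cell cortex, had 1.07 (0.88 to 1.30) and 1.14 (0.89 to 1.46). Other keratins and desmosome genes were higher in 6 of 10 and 5 of 8.

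The YAP and TEAD targets were higher in 6 of 12 and 6 of 11 cases in the libraries labelled shBicd2 and scramble, against 35.8% and 38.8% of all genes with 10 UMIs. In each library 2 were at least 2-fold higher, against 3.89% and 3.14%, and 2 and 0 were at least 2-fold lower, against 9.71% and 6.36%. Their medians were 0.08 and 0.14, against -0.20 and -0.11 for all genes, so the list lay above all genes but far below Ccn1. Ccn2, the close relative of Ccn1, had 1 UMI in members and 1 in 0-UMI barcodes of the library labelled shBicd2 and 0 in both groups of the library labelled scramble. Gadd45b, which is also an NF-kB target, had 2.02 (1.49 to 2.76) and 1.78 (1.27 to 2.51). Notch pathway genes were higher in 3 of 6 in each library, against the same 35.8% and 38.8% of all genes. Across the library labelled shBicd2, where Hes1 was at 3.36, Jag1, a Notch ligand of the ducts, had 3 UMIs in members and 9 in 0-UMI barcodes.

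Urea cycle genes were lower in members of both libraries, and sterol synthesis genes in the library labelled shBicd2. Of all genes with 10 UMIs, 9.71% and 6.36% were at least 2-fold lower in the libraries labelled shBicd2 and scramble, but none of 7 urea cycle genes was. Of these 7, 0 were higher in members of the library labelled shBicd2 and 1 in that labelled scramble, with median log2 ratios of -0.50 and -0.59. Among all genes with 10 UMIs 35.8% and 38.8% were higher. Cps1, the entry enzyme of the cycle, was at 492 CPM against 770 CPM and at 137 CPM against 226 CPM, ratios of 0.64 (0.55 to 0.74) and 0.60 (0.46 to 0.79). Arg1, the last enzyme, had 0.65 (0.58 to 0.73) and 0.67 (0.57 to 0.78). Sterol synthesis genes were higher in 1 of 17 and 8 of 17, with medians of -0.61 and -0.01; Fdps, which makes farnesyl diphosphate, had 0.56 (0.45 to 0.69) and 0.69 (0.39 to 1.22). Endoplasmic reticulum stress genes were higher in 3 of 14 and 4 of 14, with medians of -0.49 and -0.23. Hepatocyte transcription factors stayed near the median of all genes, with 5 of 16 and 6 of 16 higher and medians of -0.12 and -0.02; Hnf4a, a central one, had 1.02 (0.75 to 1.39) and 0.78 (0.60 to 1.02).

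**Figure D3:**
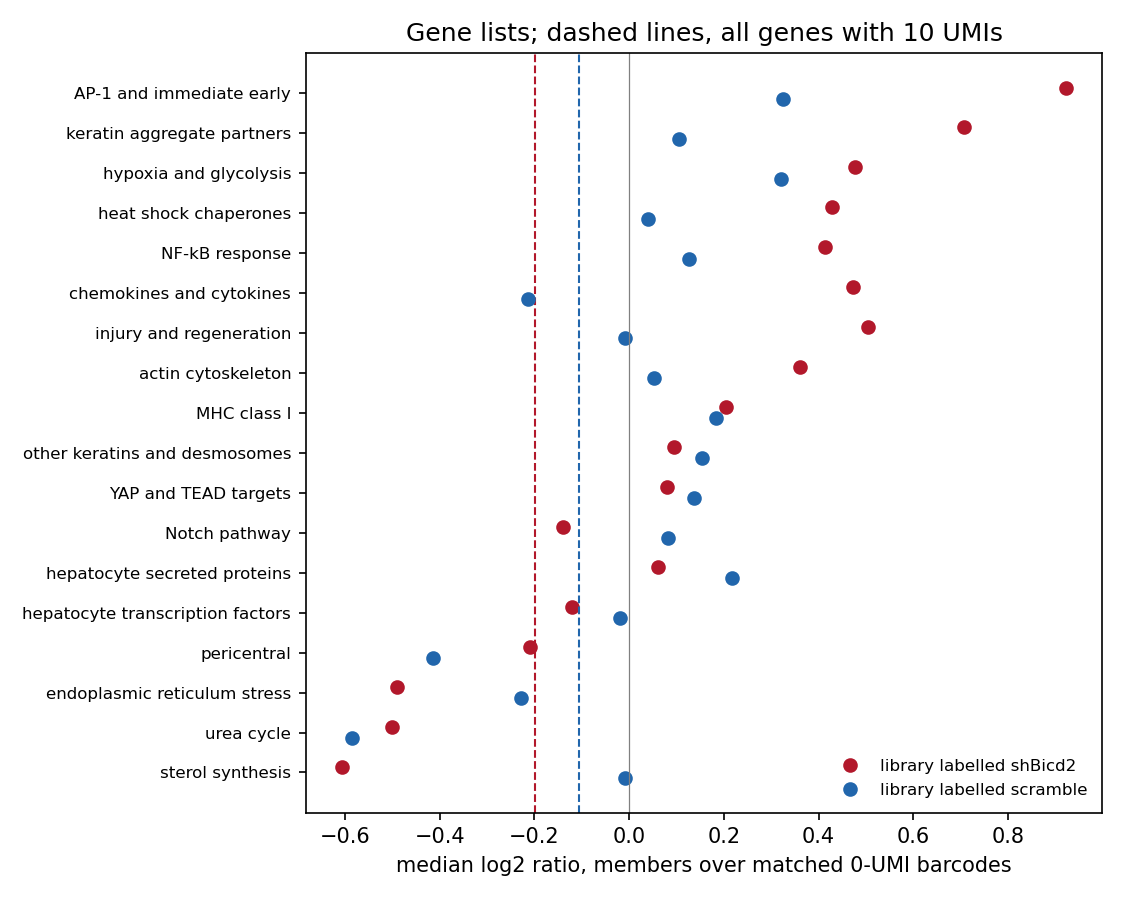
Median log2 ratio of members over depth-matched 0-UMI barcodes (horizontal axis) for 18 gene lists (rows), in the libraries labelled shBicd2 (red) and scramble (blue), over list genes with at least 10 UMIs; dashed lines are the medians of all such genes, -0.20 and -0.11. AP-1 and immediate early genes are highest in both libraries, and urea cycle genes are lowest in the library labelled scramble.

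RNA of other cell types differed between the groups as well. In the library labelled shBicd2 the erythroid list (7 genes, none at 0) summed to 606 CPM in matched members against 2553 CPM in 0-UMI barcodes, the neutrophil list (10 genes) to 257 CPM against 528 CPM and the B cell list to 6.01 CPM against 66.3 CPM. Within the library labelled scramble the same lists summed to 156 CPM against 164 CPM, 34.9 CPM against 55.0 CPM and 22.7 CPM against 33.6 CPM. Macrophage markers were at 102 CPM against 152 CPM and at 31.8 CPM against 22.9 CPM, endothelial markers at 54.1 CPM against 119 CPM and at 24.3 CPM against 22.9 CPM, and stellate cell and fibroblast markers at 43.6 CPM against 94.4 CPM and at 22.7 CPM against 29.0 CPM. T and NK cell markers were at 24.0 CPM against 39.8 CPM and at 6.06 CPM against 1.53 CPM. Blood cell RNA was thus lower in members of the library labelled shBicd2, and its part in the ratios was not tested. Among barcodes without any UMI of these markers, an alternative chosen after seeing the data, 72 genes were at least 2-fold higher and 54 lower in members labelled shBicd2, and 17 and 20 in members labelled scramble. The log2 ratio of Ccn1 was then 5.24 over 157 pairs labelled scramble, against 1.87 over the 278 pairs of the full comparison. Only 7 of 278 matched scramble 0-UMI barcodes held a Ccn1 UMI in the full comparison. The size of 5.24 is therefore uncertain, and only its direction is read. Without these markers the log2 ratio of Slpi was 0.83 in the library labelled shBicd2. That of Elovl5 was 0.21 and 0.00 in the libraries labelled shBicd2 and scramble.

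At 5 or more gate UMIs, in both libraries, Ccn1 and the sums of AP-1 and immediate early genes and heat shock chaperones were highest. Mat1a and the sum of urea cycle genes were lowest there. Among barcodes of 1000 to 4000 UMIs, Ccn1 in the library labelled shBicd2 was at 102, 97.2, 164, 135 and 330 CPM at 0, 1, 2, 3 to 4 and 5 or more gate UMIs. For the library labelled scramble it was at 28.1, 30.5, 50.3, 45.8 and 357 CPM. For Ccn1 the barcodes just inside the gate thus resembled those just outside it, and those with 5 or more gate UMIs stood apart. The AP-1 and immediate early genes summed to 6821, 7220, 7995, 9358 and 16044 CPM in the library labelled shBicd2 and to 6650, 6811, 7560, 7560 and 13632 CPM in the library labelled scramble. Heat shock chaperones summed to 1841, 1766, 1427, 2168 and 3556 CPM and to 1360, 1365, 1441, 1411 and 2669 CPM in the same libraries. Matched on depth, members with 5 or more gate UMIs labelled shBicd2 had 10 of 15 chaperones higher, against 35% of all genes, with a median log2 ratio of 0.41. Those labelled scramble had 6 of 14 higher, against 36.2%, with a median of -0.004. The higher sum was thus not shared by most of the list in the library labelled scramble.

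Mat1a was lower at each step instead, with 7812, 6974, 6372, 5654 and 3213 CPM in the library labelled shBicd2 and 2925, 2650, 2248, 1745 and 1161 CPM in the library labelled scramble. Urea cycle genes summed to 3419, 3171, 3382, 2845 and 2140 CPM and to 1350, 1297, 1173, 1084 and 774 CPM. Alb was not lower, with 1285 CPM at 0 and 1609 CPM at 5 or more gate UMIs in the library labelled shBicd2 and 960 and 1458 CPM in the library labelled scramble. Median depth within this window also went up with gate UMIs, to 2318.5 UMIs at 5 or more against 1499 UMIs at 0 in the library labelled shBicd2, and to 2040 against 1697 UMIs in the library labelled scramble. The steps hold 254, 327, 296, 392 and 614 barcodes and 945, 438, 189, 138 and 89 barcodes.

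**Figure D4:**
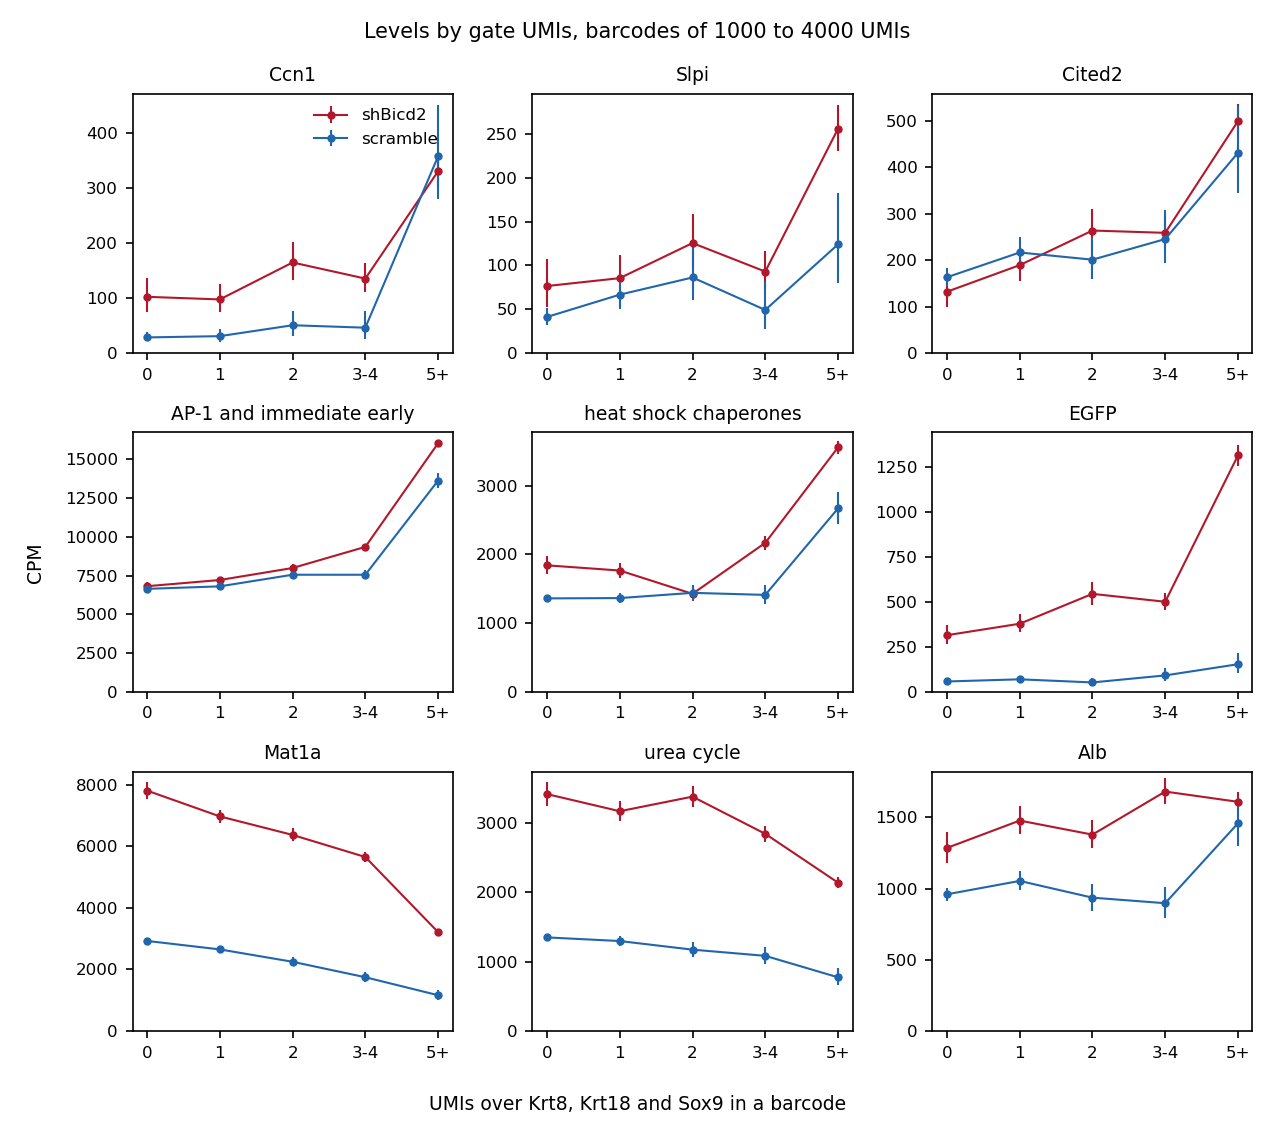
Level (CPM, vertical axes from 0, summed over the list where a list is named) by UMIs over Krt8, Krt18 and Sox9 (horizontal axes) in barcodes of 1000 to 4000 UMIs, in the libraries labelled shBicd2 (red) and scramble (blue), with exact 95% Poisson intervals. Ccn1 stays at or below 164 CPM up to 4 gate UMIs and reaches 330 CPM and 357 CPM at 5 or more, while Mat1a goes down at every step in both libraries.

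Matched to 0-UMI barcodes on their own, members just above the threshold and members with many gate UMIs lay further apart for Ccn1 in the library labelled scramble than in that labelled shBicd2, a difference that was not tested. Labelled scramble, the 173 matched members with 3 to 4 gate UMIs had Ccn1 at a ratio of 0.62 (0.30 to 1.24) and 5 of 14 AP-1 and immediate early genes higher, against 45% of all genes. The 108 matched members with 5 or more had Ccn1 at 5.19 (2.96 to 9.71) and 15 of 15 of these genes higher, against 36.2% of all genes. Across the library labelled shBicd2 the 389 lower members had Ccn1 at 1.47 (1.02 to 2.15) and 15 of 16 of the list higher, against 42.5% of all genes, and the 304 upper members 3.75 (2.72 to 5.25) and 16 of 16, against 35%. Mat1a was below 1 in every one of these sets, at 0.71 (0.68 to 0.74) and 0.40 (0.37 to 0.42) in the lower and upper members labelled shBicd2 and at 0.63 (0.57 to 0.70) and 0.35 (0.30 to 0.40) in those labelled scramble. Slpi was at 1.35 (0.90 to 2.04) and 3.72 (2.58 to 5.48) in the lower and upper members labelled shBicd2. In those labelled scramble Slpi was at 0.90 (0.46 to 1.76) and 3.90 (1.98 to 8.38). Snai2, raised in the library labelled shBicd2, was at 4.32 (1.74 to 12.8) in the upper scramble members, on 26 against 6 UMIs.

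**Figure D5:**
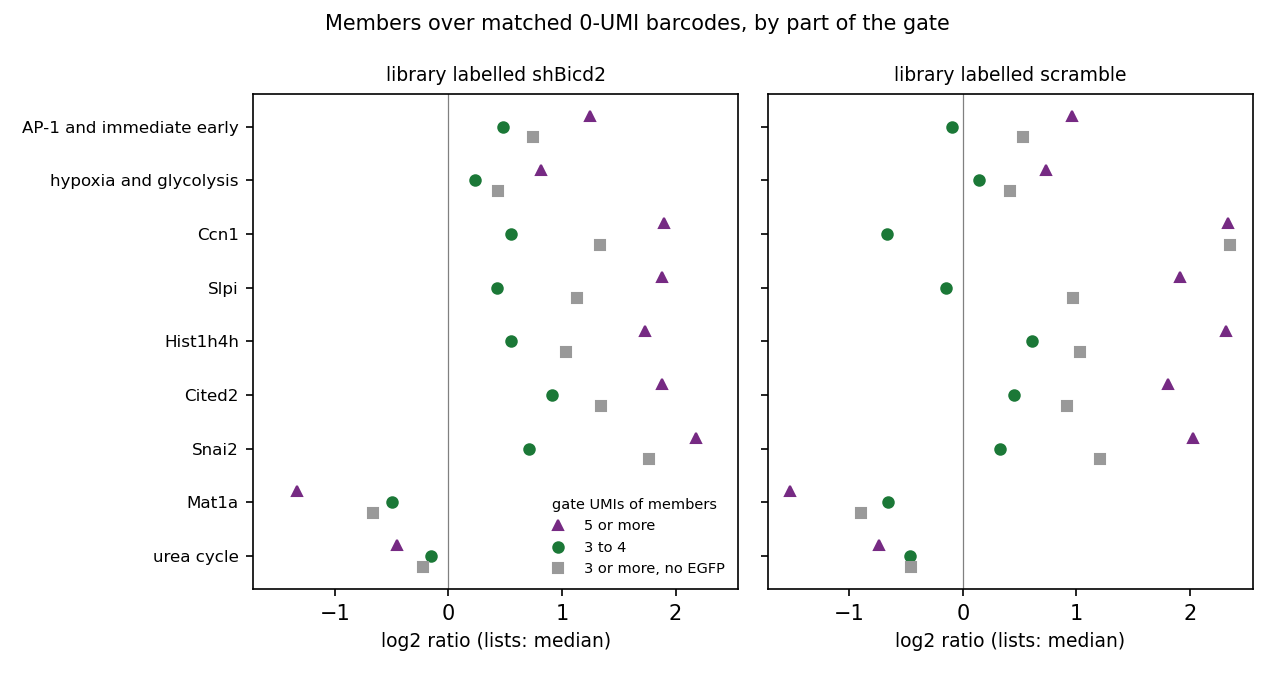
Log2 ratio over depth-matched 0-UMI barcodes (horizontal axis; median for the lists) of members with 5 or more gate UMIs (triangles), with 3 to 4 gate UMIs (circles) and of members and 0-UMI barcodes both without EGFP (squares), in the libraries labelled shBicd2 (left) and scramble (right). In the library labelled scramble Ccn1 lies at 2.34 for 5 or more gate UMIs and at -0.66 for 3 to 4.

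EGFP, a fluorescent reporter counted as a feature of both libraries, varied with the gate in the library labelled shBicd2. It was found in 137 of 460 matched members (29.8%, 25.6 to 34.2) and 73 of 460 matched 0-UMI barcodes (15.9%, 12.7 to 19.5), at 1079 CPM and 310 CPM, a ratio of 3.48 (2.96 to 4.11). Within the library labelled scramble it was found in 26 of 278 members (9.35%) and 27 of 278 0-UMI barcodes (9.71%), at 123 CPM and 79.5 CPM. The labels do not say which construct carries EGFP. Between barcodes without EGFP UMIs the ratio of Ccn1 was 2.55 (1.56 to 4.30) over 372 pairs labelled shBicd2 and 5.28 (2.89 to 10.4) over 253 pairs labelled scramble. Of the AP-1 and immediate early genes, 15 of 15 were higher in these pairs labelled shBicd2, against 40.6% of all genes, and 13 of 15 in those labelled scramble, against 39.9%.

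Among the members themselves the EGFP-bearing ones carried more of the same stress genes. For the library labelled shBicd2, 532 members had an EGFP UMI and 794 had none, with median depths of 2590 and 1878.5 UMIs that were not matched. All 17 measured AP-1 and immediate early genes were higher in EGFP-bearing members, against 26.3% of all genes with 10 UMIs. Ccn1 was at 447 CPM in EGFP-bearing and 114 CPM in EGFP-free members, a ratio of 3.93 (3.34 to 4.65), and Hspb1 at 163 CPM and 40.5 CPM, a ratio of 4.04 (3.07 to 5.37). Krt8 was at 2005 CPM and 1358 CPM, and Krt18 at 1819 CPM and 1570 CPM. Both keratins belong to the gate, whose 3 UMIs are a higher CPM in a shallower barcode, so these levels only describe the gated barcodes. Lowest were the imprinted noncoding RNAs Meg3, Rian and Mirg, at ratios of 0.15, 0.16 and 0.16. Across the library labelled scramble, with 28 EGFP-bearing and 258 EGFP-free members, 15 of 15 of the list were higher, against 40.7% of all genes, and Slpi was at 336 CPM and 65.4 CPM, a ratio of 5.14 (3.11 to 8.39).

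Members with a Sox9 UMI differed from keratin-only ones in opposite directions in the libraries for several genes; the difference between the libraries was not tested. Labelled shBicd2, the 164 Sox9-bearing members had more of some interferon-induced genes than the 1162 keratin-only ones, with Rsad2 at 336 CPM and 117 CPM, a ratio of 2.86 (2.36 to 3.46), and Ifit2 at 2.65 (2.08 to 3.36), where 40.1% of all genes were higher. Fam13a had the highest ratio, 4.38 (2.77 to 6.88), and Atf3 had 1.43 (1.29 to 1.58). Within the library labelled scramble the 63 Sox9-bearing members had less Ccn1 than the 223 keratin-only ones, with a ratio of 0.47 (0.24 to 0.86), and less Jun, with 0.62 (0.52 to 0.74); 57% of all genes were higher there. Rsad2 was at 0.56 (0.39 to 0.77) in that comparison, and Ccn1 at 1.43 (1.21 to 1.68) in the library labelled shBicd2. In the Sox9-bearing scramble members the keratins were lower too, with Krt8 at 598 CPM against 1180 CPM. A Sox9 UMI also counts toward the gate, so such members can pass it with fewer keratin UMIs. Depth was not matched in these comparisons. Hadhb, a subunit of the enzyme of mitochondrial fat oxidation, had 3.02 (1.70 to 5.39).

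Between the libraries, members labelled shBicd2 had higher levels of many genes than members labelled scramble. Of 7196 genes with at least 50 UMIs, 830 (11.5%) were at least 2-fold higher and 210 (2.92%) at least 2-fold lower; 60.5% were higher at any size, and the median log2 ratio was 0.15. Rian was at 101 CPM in shBicd2 members and had 0 UMIs in scramble members, at least 24.3-fold higher against a floor of 3 counts over the group. Meg3, of the same imprinted cluster, was 47.4-fold higher (21.7 to 129), on 1252 against 6 UMIs. EGFP was at 1217 CPM in shBicd2 members and 126 CPM in scramble members. Lower in shBicd2 members were Nrp1, a receptor for semaphorins and VEGF, at a ratio of 0.16, Cyp2c70, which makes muricholic acid, at 0.17, and Onecut1, a hepatocyte transcription factor, at 0.21. Each of 17 sterol synthesis genes was higher (median log2 ratio 1.24), 12 of them at least 2-fold, where 59.9% and 15.7% of all genes with 10 UMIs were. Each of 17 type I interferon genes was lower (median -1.11), 10 of them at least 2-fold, where 5.07% of all genes were. The sums of both lists differed in the same direction outside the gate. Among barcodes of 1000 to 4000 UMIs with 0 gate UMIs, sterol synthesis genes summed to 3428 CPM labelled shBicd2 and 1028 CPM labelled scramble. Type I interferon genes had 653 UMIs in 460 matched 0-UMI barcodes labelled shBicd2 and 1437 in 278 labelled scramble. These directions were thus not particular to the members. With members of both libraries matched one to one on depth, an alternative chosen after seeing the data, 341 genes were at least 2-fold higher and 150 lower. The keratin gate itself selects a larger share of 1 library, and nothing here separates the hairpin from the animal.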

How the data were processed

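RNA of single barcodes from mouse liver was measured with the 10x droplet assay in 2 libraries, 1 per group. The deposited values are raw UMI counts per gene and barcode; per the file headers they were written by Cell Ranger 6.1.2. Per the submitters' processing notes the tools were Cell Ranger 6.0.1 and Seurat 4.0.3, on build mm10. No source used here says whether doublets were removed before deposit or whether intronic reads were counted. No barcode has under 500 UMIs.

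The members and gene lists were chosen with earlier results of these data known, so their directions are no independent evidence. Groups came from the sample titles. UMIs were summed over barcodes and divided by all UMIs to give CPM, or, for ratios and the levels by gate UMIs, by the UMIs outside Krt8, Krt18, Sox9, Ptprc, Ptprb and Dcn (Python 3.11.15, numpy 2.4.6, scipy 1.17.1, pandas 2.3.3, matplotlib 3.10.9). Ratios are members over 0-UMI barcodes, or shBicd2 over scramble. Intervals at 95% are exact Poisson for CPM, Clopper-Pearson for shares and conditional binomial for ratios, and cover counting error only. For log2 ratios, 0.5 was added to both sums. Barcodes are not replicates, so there are no p-values and no standard errors. The calculation was tested on simulated Poisson counts. These hold no bunching of UMIs within barcodes, so that test does not cover it.

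Genes could be named if they had 50 UMIs over both groups, 50 CPM in the higher one and an interval bound beyond 1.5-fold, taking the 12 most extreme each way in each library and 10 each way between libraries; or if they were among the 10 each way with the largest ratio shared by both libraries, for which the bound was not asked; or if they were among the 6 list members with the most UMIs. The gate genes, EGFP, Bicd2 and the bile duct and mesothelium lists were named throughout. Mitochondrial, ribosomal, hemoglobin, variable immunoglobulin, receptor and clone-named genes were left out. Alb, Atf3, Ccn2, Egln3, Hspb1, Klf10, Myc, Fam13a and Hadhb fall outside that rule and were chosen after their values were seen. Doublets were kept in the main comparison; an alternative removed the highest Scrublet scores (scanpy 1.11.5) at 0.8% of barcodes per 1000. Promoter sequences are from RefSeq on GRCm38.p6 and coordinates from GENCODE on GRCm38; of the 4 genes looked up, 3 had a promoter there. Alternatives covered the gate, the depth match, the scaling, the gene filter, mitochondrial share, EGFP and doublets. Values of a few genes are not reported here.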

Additional observations from a re-analysis of the deposited data

How the results depend on the processing

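With 1 library per group no result can be checked on replicates, and the deep shBicd2 members have no partner in depth. The gate decides the number of members: with 2 UMIs it took 530 scramble barcodes, with 5 UMIs 792 shBicd2 and 110 scramble barcodes, and applied after thinning to 1000 UMIs 641 and 103. Counts of genes at least 2-fold higher and lower in members than in 0-UMI barcodes also moved. In the library labelled shBicd2, where they were 108 and 96, they were 304 and 385 with no depth match, 639 and 1013 with weighted depth bins, in which few deep 0-UMI barcodes carry large weights, 215 and 187 after thinning, 210 and 277 with a gate of 5, 178 and 37 scaled to a median log2 ratio of 0, 67 and 50 without EGFP-bearing barcodes, 350 and 874 with genes of 10 UMIs and 1653 and 2956 with genes of 1 UMI; without barcodes with other cell types' markers (chosen after seeing the data) 54 were lower. In the library labelled scramble, where they were 26 and 31, they were 40 and 245 with no depth match, 13 and 18 with a gate of 2, 45 and 74 with a gate of 5, 261 and 529 with genes of 10 UMIs, 1535 and 2281 with genes of 1 UMI, and 17 and 20 without other cell types' markers; weighted bins gave 13 higher and thinning 109 lower. Between the libraries' members, where they were 830 and 210, they were 1694 and 547 with genes of 10 UMIs; 468 were higher after thinning and 341 in depth-matched members (chosen after seeing the data), and 342 lower when scaled to a median log2 ratio of 0. Removing doublets left 1282 and 275 members labelled shBicd2 and scramble and kept these counts within 1.5 times. The cause was not tested, except where fewer genes or barcodes enter by construction. Of the values of single genes and list medians, 752 moved by less than their counting interval, 51 moved by more, and none changed sign beyond it. Among those, the AP-1 and immediate early median in the library labelled scramble was 0.96 with a gate of 5. No paired analysis was possible because each group has 1 library.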
